A study of Arabidopsis thaliana with 4 samples.

Results

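Transcript levels in aerial tissue of 14-day-old, soil-grown Arabidopsis thaliana were searched for transcripts that were consistently lower in php mutant plants than in wild-type plants. A probe set, the group of short oligonucleotides that measures one transcript on the Affymetrix ATH1 array, was taken when the higher of the 2 php values lay at least 0.6 below the lower of the 2 wild-type values on the log2 scale, where a difference of 1 is 2-fold. Of the 22746 probe sets that are not array controls, 133 met this, which is 0.585%. The 8 left out beforehand were the probe sets of GSTU26 and AER and 6 others listed by identifier, so 125 are described here. The members were chosen by their log2 values on these same 4 arrays, so the differences between genotypes below are a description and no test is attached to them.

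Each genotype had 2 arrays, numbered I and II, and each array carried RNA of 3 independently derived samples. Per the labels, the wild-type group has no further genotype given and the mutant group is named php, with no allele given in the sources used here. The platform annotation names a single gene for 61 of the 125 probe sets, and 60 of these have a locus in RefSeq's TAIR10.1 annotation. Of the rest, 1 lists 2 genes and 63 have no gene name here. No probe set named here measures PHP mRNA, so its level is not used here to check the genotypes.

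PHP, PLANT HOMOLOGOUS TO PARAFIBROMIN, is the plant counterpart of the Cdc73 subunit of the PAF1 complex. The complex travels with RNA polymerase II along transcribed genes, recruits enzymes that modify histones, and helps transcription to proceed through chromatin. In Arabidopsis its subunits are known above all as activators of FLC, a repressor of flowering, and of related genes.

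The members reached over most of the range of levels but were concentrated in its middle. A wild-type mean from 6 to under 8 was found in 46.4% of members, against 21.4% of all non-control probe sets. Under 4 lay 7.2% of members against 41.4% of all, since the rule takes few probe sets that are dim in both genotypes. Wild-type means of the members ran from 3.45 to 12.43 with a median of 6.84, and their php means from 2.23 to 11.04 with a median of 5.92. The median log2 difference was -0.93, a 1.90-fold lower level, beside 0.01 for the 15922 probe sets above a filter on dim signals. By means, 44 members were at least 2-fold lower in php and 8 at least 4-fold lower. Of these, 8 of the 44 and 1 of the 8 had a php mean under 3, taken here as the floor of these values, where a fold is not well measured. Most gaps were close to the limit, with 73 members between 0.6 and 0.8 and 23 at 1 or more. All 125 passed the filter, which removed the lowest 30% of probe sets by their mean over the 4 arrays, but the mean includes the wild-type arrays that the rule requires to be higher. In bulk tissue, fewer cells of a type and less RNA per cell cannot be told apart.

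**Figure D1:**
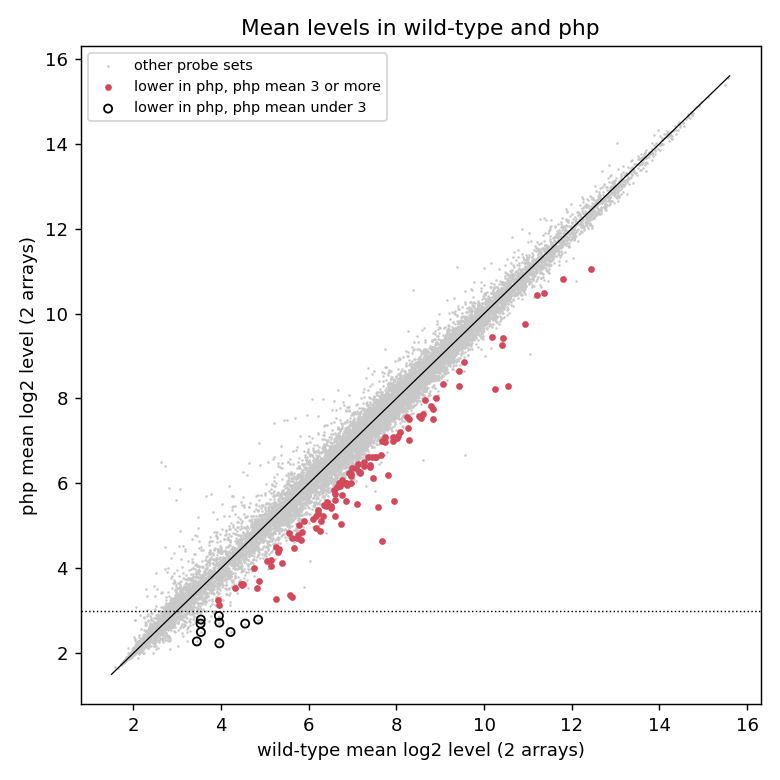
Mean log2 level over 2 arrays in wild-type (horizontal axis) and php (vertical axis) for each of the 22746 probe sets, with the line of equal levels and a dotted line at a php mean of 3. The 125 members lie below the diagonal by rule, and the 10 open circles with a php mean under 3 all have wild-type means between 3.45 and 4.84.

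Secreted proteins with known or presumed roles in defence accounted for 7 of the 61 named members. The median log2 difference of the 7 was -1.03, and the 6 with a php mean above the floor differed by -1.39 to -0.77. The role groups used in this and the next paragraphs were assigned from general knowledge of the loci after their values were seen, so their sizes depend on how they were drawn and no share among all genes is set beside them. They cover 30 of the 61 named members. The groups hold members only, so no gene in them could be higher in php. In families matched by words in the annotation, 5 of 5 tested lectins were higher without overlap, with a median difference of 0.58. Of 5 tested peroxidases 3 were lower and 2 higher without overlap. The 2 chitinases so matched were both lower, but this follows from the rule. Of these, ChiC is a member, and CHI met the rule but was left out beforehand. Over all tested probe sets, 27.4% were lower and 33.2% higher without overlap. OSM34, an osmotin of the thaumatin family, was at 4.60 and 5.09 on wild-type arrays I and II and at 2.66 and 2.92 on php arrays I and II, the order kept below. Both php values were under the floor of 3 used here, so the size of the difference is not well measured. AT3G05730, a defensin-like protein gene, was at 12.42 and 12.44 in wild-type against 11.17 and 10.91 in php. Its difference of -1.39 is a 2.62-fold lower level in a transcript that remained far above the floor.

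Among chitinases, enzymes that cut the chitin of fungal cell walls, the gene AT2G43590 was at 6.47 and 6.55 in wild-type against 5.51 and 5.44 in php, 2.05-fold lower. ChiC, which encodes a class V chitinase, was at 5.02 and 5.08 in wild-type against 4.23 and 4.13 in php, 1.83-fold lower. For both genes the 2 arrays of a genotype differed by little compared with the gap between genotypes. Lipid-transfer proteins, small cysteine-rich proteins that bind lipids outside the cell, were represented by AT5G48490 and AT5G59330. AT5G48490, a close relative of the systemic resistance protein DIR1, was at 11.75 and 11.86 in wild-type against 10.92 and 10.71 in php, 1.99-fold lower. AT5G59330 was at 6.72 and 6.78 in wild-type against 5.75 and 5.68 in php, and its largest difference between 2 arrays of a genotype was 0.07. The dirigent family gene AT1G22900 was at 4.29 and 4.32 against 3.46 and 3.60, a difference of -0.77.

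These 7 genes were set beside a list of pathogenesis-related proteins, chitinases and glucanases. Of the 17 loci of the list, 6 had a probe set named here and 4 were above the filter, of which 3 are members (OSM34, AT2G43590 and ChiC). The fourth, the chitinase family gene AT2G43620, was at 4.05 and 3.67 in wild-type against 3.70 and 3.46 in php, and the genotypes overlapped (log2 difference -0.28, limma adjusted p = 0.368). AT2G43610 and AT2G43580, chitinase family genes of the same stretch of chromosome 2, stayed between 1.98 and 2.32 on every array. CHI (AT2G43570), a chitinase gene of that stretch outside the list, was among the 8 probe sets left out beforehand. It was at 6.23 and 5.84 in wild-type against 3.95 and 4.40 in php, a difference of -1.86 without overlap. The median difference of the 4 tested genes was -0.95, and since 3 of them are members this median follows from the choice of members. In the list of salicylate synthesis and response, 2 of 20 loci were tested and both had higher values on both php arrays. Of all tested probe sets, 33.2% were likewise higher without overlap. SAG101 differed by 0.29 and GRX480, a glutaredoxin gene, by 0.44 (limma adjusted p = 0.258 and 0.391). GRX480 was at 4.74 and 4.84 in wild-type against 4.85 and 5.61 in php, so php I barely cleared wild-type II. Across the lists, 16 tested probe sets are not members, and limma called 0 of them at an adjusted p under 0.05, beside 0.0314% of all 15922 probe sets tested. At an unadjusted limma p under 0.05, 2 of the 16 were lower and 2 higher, beside 2057 lower and 1799 higher of all 15922. The lower ones were the left-out GSTU26 and AER (log2 differences -1.56 and -1.44, limma adjusted p = 0.0839 and 0.0833). Both had met the rule on these same values, so their p-values are no separate support. In the list of sugar starvation and darkness, MCCA, a gene of leucine breakdown, differed by 0.37 and AT3G15450 by -0.09 (limma adjusted p = 0.167 and 0.915). WRKY53, a transcription factor gene of leaf senescence, was the 1 tested gene of its list and overlapped between genotypes, with array II far above array I in both (4.89 and 6.41 against 4.23 and 6.55). Iron, sulfur, phosphate and nitrate responses, the FLC clade and the PAF1 complex had 0 tested probe sets named here.

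Genes of cell wall proteins and of lipid and acyl metabolism gave 6 further named members. AT3G16670, of the pollen Ole e 1 allergen and extensin family, was at 10.98 and 10.88 in wild-type against 9.89 and 9.62 in php, 2.26-fold lower. AT1G23205 encodes a protein of the inhibitor family that acts on invertases and pectin methylesterases. It was at 7.95 and 8.10 in wild-type against 7.01 and 7.11 in php, 1.95-fold lower. AT2G20870, a putative cell wall protein gene, was at 6.05 and 6.52 against 4.88 and 5.35. In that gene array II was the higher one in both genotypes, by 0.47 and 0.46, and the gap of 0.70 was larger than either. AT5G07870, of the HXXXD acyltransferase family, was at 6.11 and 6.38 in wild-type against 4.74 and 5.0 in php, 2.59-fold lower. The wax ester synthase family gene AT5G12420 was at 6.43 and 6.75 against 5.63 and 5.58, and the long-chain fatty alcohol dehydrogenase family gene AT4G19380 at 6.40 and 6.43 against 5.40 and 5.73.

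Sugar transport and metabolism gave 3 named members. SWEET2, a sugar transporter of the vacuolar membrane, was at 7.49 and 7.51 in wild-type against 6.66 and 6.58 in php, 1.84-fold lower, and the 2 arrays of a genotype differed by at most 0.08. AT3G49160, of the pyruvate kinase family, was at 5.65 and 6.02 against 4.83 and 4.51, and AT5G51830, a fructokinase of the pfkB family, was at 6.99 and 6.95 against 6.13 and 6.24. Other SWEET genes were then compared with SWEET2. They are named by the annotation, and this comparison and those with other relatives below were chosen after the values were seen, so no test is given. Of the other SWEET genes 6 were above the filter, and 0 of them were lower in php without overlap, while 5 were higher without overlap. Over all 15922 tested probe sets, 27.4% were lower and 33.2% higher without overlap, so a lack of overlap alone is common on these arrays. The median difference of the 6 was 0.32, or 0.21 without php replicate I. SWEET16, also a vacuolar sugar transporter, was at 6.71 and 6.69 in wild-type against 7.48 and 7.50 in php, a difference of 0.79 in the opposite direction to SWEET2 and of similar size. SWEET16 met the mirrored rule, php at least 0.6 above wild-type, which 125 probe sets or 0.55% of the 22746 met. SWEET1 was the remaining one, at 7.94 and 8.19 against 8.06 and 7.97, with a sign that turned without wild-type replicate II. The other 7 SWEET probe sets with a name lay below the filter.

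Genes of transcription, chromatin and cell division gave 6 named members. AT5G08565 encodes SPT4-1, one of the SPT4 proteins, which together with SPT5 bind RNA polymerase II during elongation. It was at 5.60 and 5.90 in wild-type against 4.79 and 4.79 in php, 1.94-fold lower. AT5G11430, annotated with an elongation factor S-II domain, was at 5.77 and 5.45 against 4.59 and 4.83, 1.87-fold lower. Of 9 loci of transcription elongation factors, 3 had a probe set named here, these 2 and the SPT5 homologue AT2G34210, which was at the floor in both genotypes (2.12 and 2.16).

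ASF1B, a histone chaperone that hands histones H3 and H4 to newly replicated DNA, was at 7.49 and 7.40 in wild-type against 6.60 and 6.66 in php, 1.76-fold lower. SGA2, the second ASF1 chaperone gene, was at 7.10 and 7.30 against 6.93 and 6.92, a smaller difference of -0.27 without overlap. AT3G53650, a histone H2B gene, was at 6.16 and 6.27 in wild-type against 5.34 and 5.40 in php, 1.80-fold lower. Of the other 4 named H2B genes, 3 were lower without overlap, beside 27.4% of all tested probe sets. These were HTB2 at -0.78, HTB11 at -0.43 and HTB1 at -0.32. HTB4 overlapped between genotypes at -0.07. H2B genes are closely similar in sequence, and whether their probe sets share signal was not tested. The median of the 4 was -0.38, and between -0.43 and -0.33 under quantile normalization, median centring and each array left out.

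AT3G54630 encodes NDC80, which ties spindle microtubules to the kinetochore. It was at 5.97 and 5.79 in wild-type against 5.11 and 5.11 in php, 1.71-fold lower. ZCF125, a kinesin motor gene, was at 5.84 and 5.72 against 4.99 and 5.03, 1.70-fold lower. Of 15 loci of mitosis, 7 had a probe set named here. Besides AT3G54630, 6 were above the filter and 4 were lower without overlap, beside 27.4% of all tested probe sets. The median difference of the 6 was -0.34. That median came to -0.20 with php replicate II left out and to -0.23 with wild-type replicate II left out. AUR3, an Aurora kinase gene of the centromere, was at 3.79 and 4.03 in wild-type against 3.66 and 2.94 in php, so its php arrays disagreed by more than the genotypes differed. BUBR1, a spindle checkpoint gene, differed by -0.25 with wild-type I and php I at 3.54 and 3.52. The centromeric histone gene HTR12 and the kinetochore gene AT3G48210 differed by 0.00 and -0.01, and their signs turned under several of these alternatives, median centring among them. The named kinesin genes KINESIN-12B and KINESIN-13A differed by -0.14 and -0.03, the second with a turned sign under median centring and with array I of either genotype left out.

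**Figure D2:**
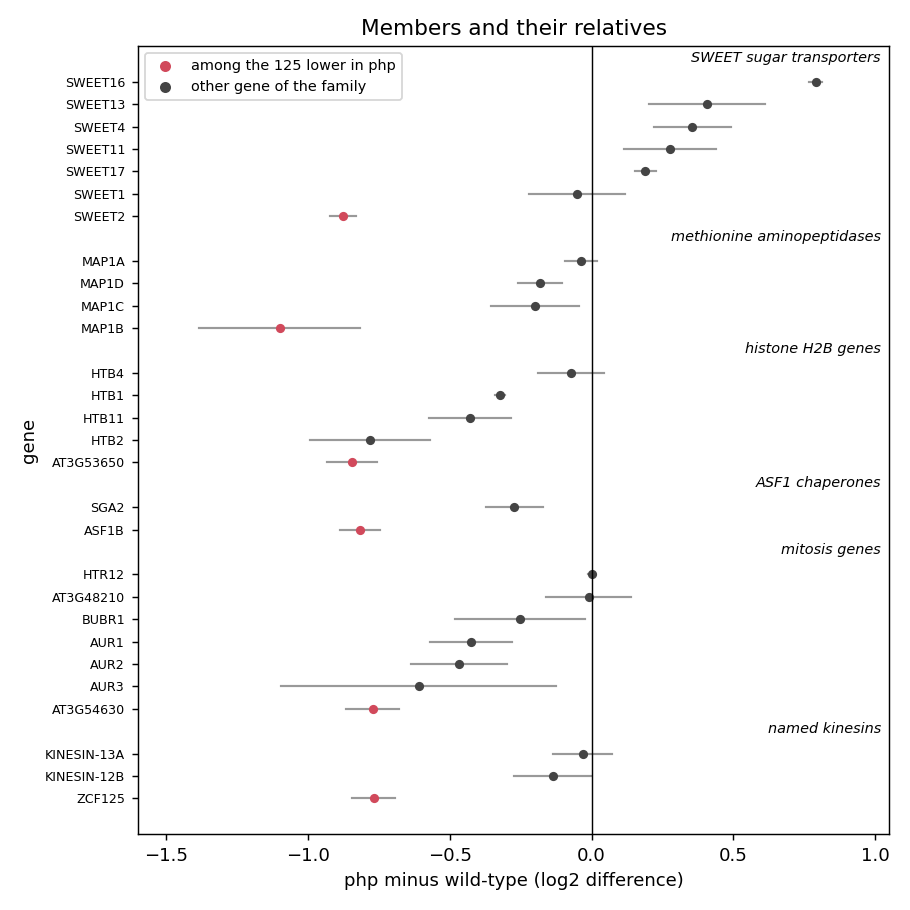
Log2 difference, php minus wild-type, for members (red) and for other named genes of the same family or process above the filter (dark); each line runs from the smallest to the largest difference between any php and any wild-type array. SWEET2 lies at -0.88 with SWEET16 at 0.79, MAP1B at -1.10 with its relatives between -0.20 and -0.04, and AT3G53650 at -0.84 next to HTB2 at -0.78.

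Protein maturation and turnover gave 3 named members. MAP1B (AT3G25740), an organellar methionine aminopeptidase that removes the first methionine of new proteins, was at 6.58 and 6.45 in wild-type against 5.19 and 5.64 in php, 2.14-fold lower. The other 3 methionine aminopeptidase genes, MAP1A, MAP1C and MAP1D, differed by -0.04, -0.20 and -0.18, the first with a turned sign under median centring. AT2G38730, a cyclophilin-type prolyl isomerase gene, was 1.69-fold lower. AT1G23410, which encodes ubiquitin fused to ribosomal protein S27a, was at 8.13 and 8.41 against 7.06 and 7.53 and was among the members nearest to the limit.

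AT3G18250, a putative membrane lipoprotein gene, had the widest gap of the named members, 1.89. It was at 7.71 and 7.46 in wild-type against 5.57 and 5.33 in php, and array II was lower than array I by 0.25 in both genotypes. AT3G46370, of the leucine-rich repeat protein kinase family, was at 5.57 and 5.22 against 4.16 and 4.07, 2.43-fold lower. AFR, an F-box protein gene of far-red light signalling, was at 7.26 and 7.01 in wild-type against 6.28 and 6.26 in php, 1.82-fold lower. That these genes are apart between genotypes on every array follows from the rule.

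AT3G60070, of the major facilitator superfamily of transporters, was at 4.88 and 4.76 in wild-type against 3.51 and 3.54 in php, 2.45-fold lower. AT4G01870, a tolB-related gene, was at 5.10 and 5.17 against 3.86 and 4.24, and AT1G33265 at 7.35 and 7.43 against 6.26 and 6.54. AT1G13650 was at 10.35 and 10.49 in wild-type against 9.32 and 9.19 in php, 2.24-fold lower. In none of these 4 did the arrays of a genotype differ by more than 0.38. AT3G47560, an alpha/beta hydrolase gene, and AT3G17160 differed by -0.78 and -0.69 at wild-type means of 9.43 and 9.54. AT4G16870, a pseudogene in the RefSeq annotation and known as a copia-type retroelement within a cluster of resistance genes, was at 6.28 and 6.14 in wild-type against 5.34 and 5.26 in php, 1.88-fold lower. The 31 named members outside the role groups differed by between -2.14 and -0.66, with a median of -0.86.

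**Figure D3:**
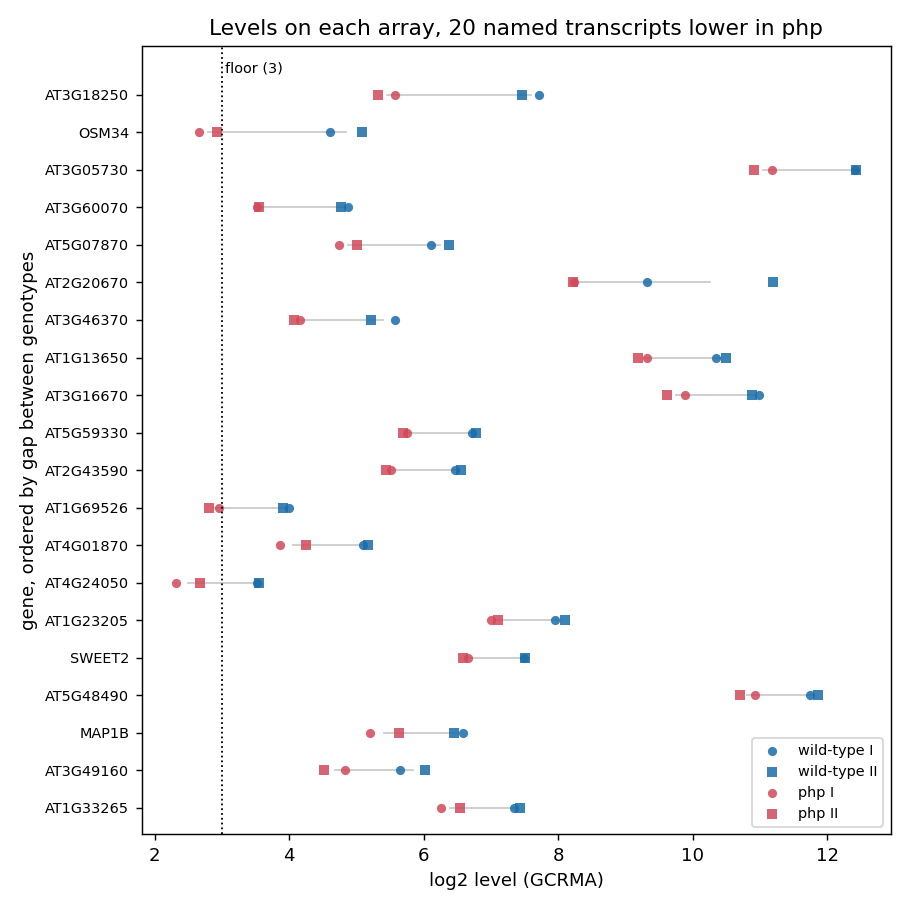
Log2 level on each of the 4 arrays for the 20 named members with the widest gap between genotypes, ordered from AT3G18250 at 1.89 to AT1G33265 at 0.81; circles are array I, squares array II, blue wild-type, red php, and the grey line joins the means. OSM34, AT1G69526 and AT4G24050 have both php values to the left of the dotted line at 3, and the wild-type arrays of AT2G20670 lie far apart.

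A php mean under 3 was reached by 10 members, or 8.0%, while 34.8% of all probe sets lay there. The rule keeps the members' share low, since it takes few probe sets that are dim in both genotypes. Of the 10, 4 have a gene name. Besides OSM34 they are the methyltransferase superfamily gene AT1G69526, at 3.99 and 3.90 in wild-type against 2.95 and 2.80 in php, the short-chain dehydrogenase gene AT4G24050, at 3.53 and 3.55 against 2.31 and 2.68, and AT5G15010, at 3.60 and 3.46 against 2.65 and 2.75. In these 3 genes wild-type itself lay less than 1 log2 unit above the floor. For wild-type means of at least 4, 3 of the 10 remained, OSM34 and a pair of probe sets without a gene name. No fold is given for the 10, since the lower level is only bounded. The count was 4 with a floor of 2.5 and 15 with a floor of 3.5. The floor itself was not lower in php, with a median difference of 0.04 over the 6824 probe sets below the filter.

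The arrays of a genotype differed on the members by slightly more than on all tested probe sets. The median difference between the 2 arrays was 0.11 in wild-type and 0.13 in php for the members, against 0.09 and 0.11 for all tested probe sets. The rule acts on these same values, since a wide difference within a genotype narrows the gap, so the comparison is a description. The gap, which the rule sets at 0.6 or more, was larger than the wider of these within-genotype differences in 121 of the 125. That count follows largely from the choice of members. Neither php array was the lower one throughout, with php I lower in 63 members and php II in 62. A within-genotype difference of at least 0.6 occurred in 10 members, of which AT2G20670, a gene with a domain of unknown function, and AT2G41250, of the haloacid dehalogenase-like hydrolase family, have names. AT2G20670 had its wild-type arrays 1.88 apart, and its difference was -1.09 without wild-type replicate II in place of -2.03. AT2G41250 was at 8.43 and 8.16 in wild-type against 7.35 and 6.71 in php.

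**Figure D4:**
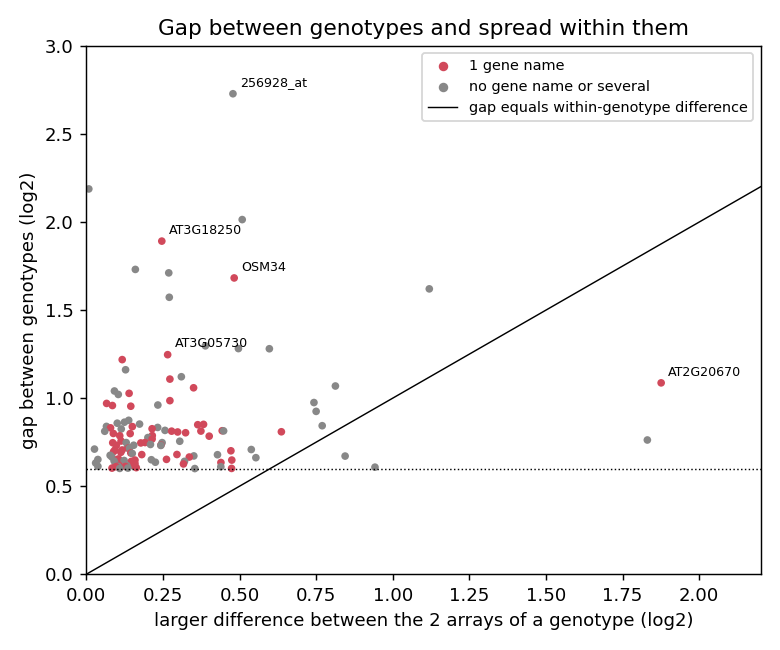
Gap between genotypes (vertical axis, log2) against the larger of the within-genotype differences (horizontal axis, log2) for the 125 members, with members that have 1 gene name in red; the dotted line is the limit of 0.6 and the solid line marks equality. The gap exceeds the within-genotype difference in 121 members, and AT2G20670 is the one labelled gene far to the right of the line.

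The widest gaps of all belonged to probe sets that have no gene name here. These probe sets were not matched to genes here, so whether any of them measures PHP itself was not tested. Probe set 256928_at was at 7.61 and 7.73 in wild-type against 4.88 and 4.41 in php, 8.15-fold lower. Probe set 250561_at was at 5.57 and 5.56 against 3.37 and 3.37, so its arrays agreed within 0.01 in each genotype. Of the 23 members with a gap of at least 1, 8 have a gene name, and 5 of the 8 members at least 4-fold lower have none or several. Of all 125, 48.8% have 1 gene name, against 59.4% of all non-control probe sets, so the roles described above cover the smaller portion of the members.

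Members were looked up in the TAIR10.1 gene order to see whether neighbouring genes differed with them. Only probe sets with a locus entered this lookup, so members without one could not appear as neighbours. Whether such members lie next to other members was not tested. Of 41 directly adjacent genes with a locus and above the filter, beside 36 members, 0 were members themselves. Their median difference was 0.01, with 13 lower and 14 higher in php without overlap, and the 13 are 31.7% against the 27.4% of all tested probe sets. AT2G24550, next to AFR, had the lowest difference of the 41, -1.04, with 8.18 and 9.40 in wild-type against 7.65 and 7.85 in php. Its wild-type arrays were further apart than the genotype means. SR, which encodes serine racemase and lies next to OSM34, was at 5.33 and 5.04 against 4.60 and 4.3, lower on both php arrays than on both wild-type arrays. Among the 81 genes within 2 places of a member, CHI, left out beforehand and 2 genes from AT2G43590, had the lowest difference, -1.86. In the opposite direction SWEET16 lies 2 genes from AT3G16670. By chromosome, 19 of the 60 members with a locus lay on chromosome 5 and 9 on chromosome 1, which are 31.7% and 15.0%, against 22.5% and 25.8% of named probe sets.

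At the limit itself the members and non-members were nearly alike. The 3 members just inside had gaps from 0.6001 to 0.601, and the only one with a name is AT1G23410. The 3 probe sets just outside had gaps from 0.5976 to 0.5998, and those with a name are AT5G17660, at 7.05 and 7.19 in wild-type against 6.45 and 6.42 in php, and AT2G42950, at 4.47 and 4.56 against 3.87 and 3.66. AT5G54130, annotated as a calcium-binding phosphatase family gene, was the 1 named member measured by a second probe set. The member differed by -0.91 and the second by -0.65, the latter with a gap that stayed short of the rule.

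The mirrored set of 125 probe sets higher in php had a median difference of 0.98, and 12 of them, or 9.6%, had a wild-type mean under 3, close to the 10 members that had a php mean under 3. Across the whole series the array medians lay between 5.59 and 5.64. Leaf markers were high on every array, 6 of 8 being measured, from 9.17 to 14.55 with no difference beyond 0.10 in size. The 4 measured flower markers stayed between 1.98 and 2.67. The root marker PYK10, which seedling shoots also express, differed by 0.47 (limma adjusted p = 0.115), and EXPA7, a gene of root hairs, stayed at 1.90 to 1.93. The 18 probe sets of bacterial spike-ins added at hybridization were higher in php by 0.22 to 0.51, and the 16 actin, GAPDH and ubiquitin controls differed by -0.40 to 0.26. Their part in the differences of the members was not tested.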

How the data were processed

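Deposited log2 values of 4 Affymetrix ATH1 arrays were used, 2 per genotype. The authors made these log2 values with GCRMA background correction and normalization, as the series' design text states, and the submitters' processing notes also name MAS5 with no role. No normalization was added, and the 64 control probe sets of 22810 were set aside. After GCRMA, probe sets without signal sit at a low floor, where differences are compressed. The versions of the authors' software are not given in these sources. The number of arrays, not a read depth, limits precision. Differences are php minus wild-type means.

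For list genes that are not members, limma 3.58.1 in R 4.3.3 was fitted over the 15922 probe sets above the lowest 30% by mean level (lmFit, eBayes with trend, two-sided, Benjamini-Hochberg over all). It was checked on simulated data. The labels do not say whether the 3 samples per array were separate plants, so p-values measure the spread between arrays. With 2 arrays a genotype, exact permutation of the arrays reaches a two-sided p of 0.333 at the lowest.

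The members and lists were chosen with earlier results of these data known. Genes were named by rule: the 20 widest gaps, members at the floor from at least 4, wild-type means of at least 9, the extremes of spread, neighbours and relatives, and the edges of the limit. Other members were named after their values were seen. Names came from the platform annotation through RefSeq gene identifiers (TAIR10.1), used for names and gene order. Planned promoter motifs were not analysed here. Figures used matplotlib 3.10.9 in Python 3.11.15.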

Additional observations from a re-analysis of the deposited data

Results flagged for a closer look

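Control probe sets for 25S and 5S rRNA took no part in choosing or describing the members. Both were higher on both php arrays than on both wild-type arrays. The 25S control was at 5.40 and 5.50 in wild-type against 6.30 and 6.97 in php, a log2 difference of 1.18. The 5S control was at 4.38 and 4.09 against 5.05 and 5.59, a difference of 1.09. In both, the wild-type and php arrays did not overlap. Their part in the differences of the members was not tested.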

How the results depend on the processing

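The rule keeps the sign of a member's difference negative with any array left out, so that sign is no sign of stability. Of 366 values of the 61 named members under quantile normalization, median centring and each array left out, 1 moved by over 1.5 times, AT2G20670 without wild-type replicate II. The number of members was 406 with a gap of 0.4, 52 with 0.8 and 23 with 1, and between 238 and 340 with any 1 array left out, where the rule asks for less by construction. Quantile normalization gave 119, 111 of them among the 125, and median centring 100, all among them. The members' median of -0.93 lay between -0.93 and -0.88 with any array left out. Under a floor of 2.5 or of the 30% quantile (2.64), 4 members reached the floor in php. Limma called 4 probe sets lower and 1 higher. With dim probe sets kept it called 0 and 0 (2056 and 5964 at an unadjusted p under 0.05), 13 and 8 with the lowest 50% left out, and 7 and 2 under median centring. With any 1 array left out it called 0 and 0 (1131 to 1875 lower and 782 to 2145 higher unadjusted). With the replicate block it also called 0 and 0 (2194 and 2117 unadjusted), and the paired form of the rule, same-numbered arrays only, gave 184. The differences I minus II of wild-type and php correlated at 0.52 across tested probe sets, but the labels do not say that the numbers mark a shared batch. The promoter motif shares were not run.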
